A study of Oryza sativa with 6 samples.

Results

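ART1 is a zinc finger transcription factor that rice roots need to tolerate aluminium (Al), a metal ion that becomes soluble in acid soil and stops root growth. The 10 genes described here need ART1 for their response to Al, as published work on rice has shown, and are not among its membrane transporters. They were chosen by locus: a probe set was taken where the deposited annotation names 1 of the 10 RAP (Rice Annotation Project) loci. Of the 10 loci, 9 were named in that way, by 11 probe sets. The RAP locus of OsCDT3, Os01g0178300, was not named by any probe set, so OsCDT3 was read through its MSU (Rice Genome Annotation Project) locus, LOC_Os01g08300, which is paired with it from prior knowledge. That brought the set to 13 of the 57258 probe sets and 10 of 37345 genes named in the table.

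The samples were root tips (0 to 1 cm) of Japonica rice seedlings, 5 d old and grown on 0.5 mM CaCl2. The root tips after Al came from seedlings kept for 6 h in 0.5 mM CaCl2 with 50 µM Al at pH 4.5 (3 arrays), and the root tips before Al from seedlings not yet given Al (3 arrays). The labels name no cultivar beyond Japonica, and both groups share the CaCl2 solution. Tips kept for 6 h without Al are not among these arrays, so an effect of Al cannot be told apart from one of time in the new solution, and the labels leave the pH before Al unstated. No art1 mutant was used here either, so dependence on ART1 is background and was not measured. The labels call the 3 arrays of each group biological repeats without saying what was grown or sampled separately, and p-values measure the spread between these arrays.

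ART1 is present in roots with and without Al and switches on genes that hold Al out of the cell, store it or change the cell wall. Besides transporters, its targets include a small cysteine-rich peptide that binds Al, proteins that act on the wall, enzymes of nitrogen and sugar metabolism, and proteins of unknown role. The wall is where much of the Al in a root tip is held.

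Each array gave a MAS5 signal per probe set, which is a summary of the brightness of its probes, on a log2 scale (1 unit is a 2-fold difference), and a detection call of present, marginal or absent. Between 24836 and 25492 probe sets were called present per array. Of the 4 root tip markers, OsSCR1 of the ground tissue, OsSHR1 of the stele, OsPIN2 of the outer layers and QHB of the quiescent centre, all were called present on all 6 arrays. Their summed linear signal was 2877 to 3368 after Al and 3679 to 4047 before Al, and OsSCR1 and OsPIN2 were lower (limma, adjusted p = 0.00603 and 0.00816). Of 2 mature root markers only Lsi1, a silicon channel, had a probe set. Its linear signal was 5041 to 6426 after Al and 6650 to 8170 before Al, without overlap (log2 change -0.31, limma, adjusted p = 0.0509). Of 19 green tissue markers 6 were never called present, and of the 8 tested 1 was higher and 2 were lower. The summed signal of those 8 was 1390 to 1615 after Al and 1743 to 1776 before Al. The part of these differences in the results below was not tested. In bulk tips, fewer cells of a type and less RNA per cell cannot be told apart.

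Of the 10 genes, 9 could be tested, each with a present call on 3 or more of the 6 arrays. In these, 8 were higher after Al (limma across all 25283 tested probe sets, adjusted p under 0.05), against 14.3% of all tested probe sets called higher and 30.2% called in either direction. The rises of 6 genes were at least 2-fold, against 4.55% of all tested probe sets. All 9 had every array after Al above every array before Al, against 19.6% of all tested probe sets, and 43.7% whose groups did not overlap in either direction. The median log2 change of the 9 was 1.30, beside -0.04 for all tested probe sets. OsCDT3 and Os04g0419100 had present calls on only 2 arrays before Al, so they entered the test only with the arrays after Al. The other tested genes were called present on all 3 arrays before Al. Where a present call on all 6 arrays was required, 7 genes were called higher, with OsCDT3 read by another probe set. Counting only genes named by RAP locus, 7 of 8 were higher, with a median log2 change of 1.23.

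**Figure D1:**
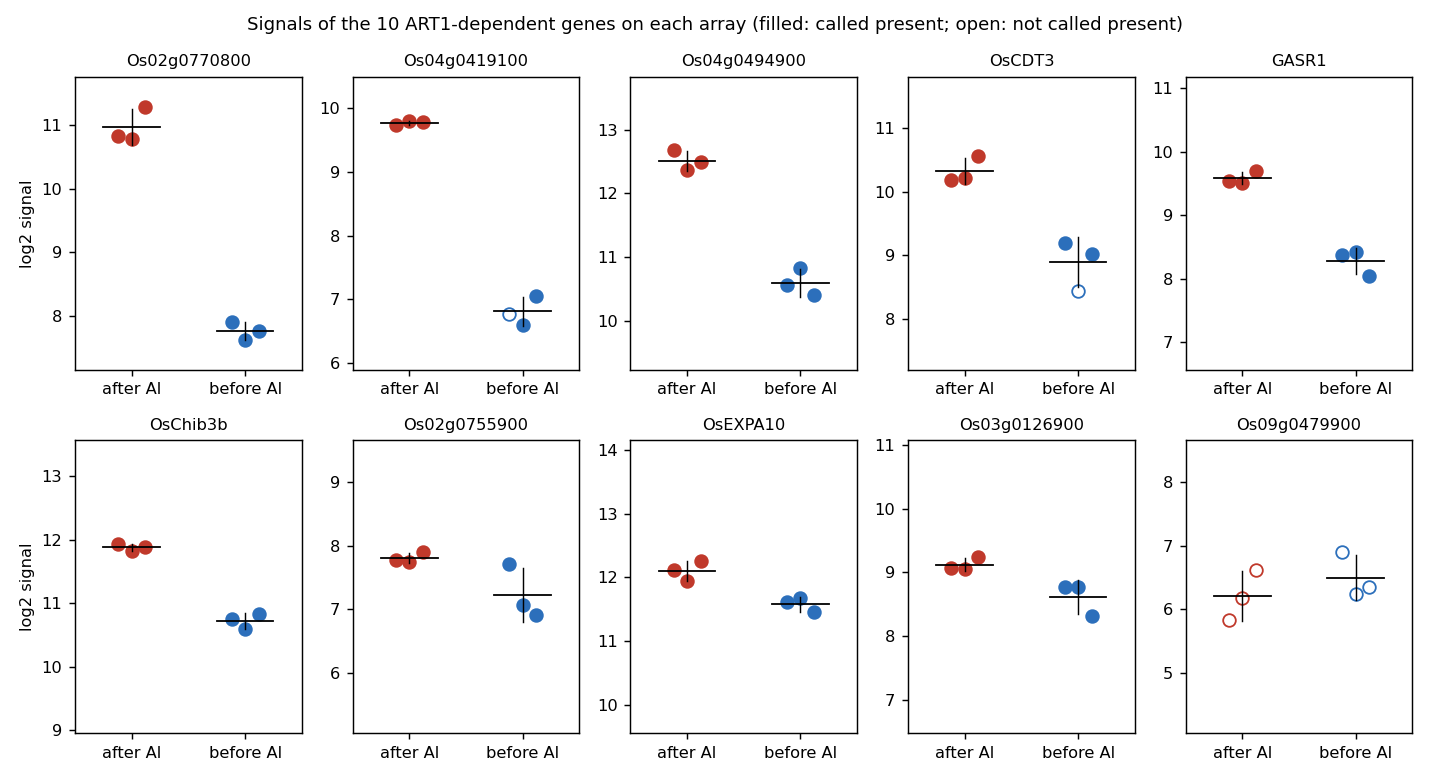
Log2 signal of the 10 genes on every array, with root tips after Al (red) left of root tips before Al (blue); bars are the mean and SD of 3 arrays, filled points were called present and open points were not, and every panel spans the same number of log2 units. The nitrate reductase Os02g0770800 and Os04g0419100 show the widest gaps between groups, the groups of Os02g0755900 lie close together, and Os09g0479900 was called present on no array.

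The first group of genes encodes small peptides. OsCDT3 encodes a cysteine-rich peptide of the plasma membrane that binds Al and lowers its entry into the cell (chromosome 1, 4063148 to 4064121 as aligned by the deposited table, which names no genome build). Its brighter probe set read 10.18, 10.22 and 10.56 after Al and 9.20, 8.44 and 9.02 before Al, in log2 signal. The arrays after Al all lay above those before Al, and the lowest of them, the second array before Al, was not called present. OsCDT3 rose by 1.43 ± 0.18 (log2 change, SE), a 2.70-fold rise with a 95% interval of 2.03 to 3.59 (limma, adjusted p = 0.000253). Over the alternatives that read this probe set, the adjusted p ran from 6.35e-05 (limma with a replicate block) to 0.0695 (unequal-variance test).

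A second probe set of the same MSU locus (4063424 to 4064020) gave a larger rise of OsCDT3. It read 10.23, 10.28 and 10.22 after Al and 8.50, 7.88 and 8.18 before Al, and was called present on all 6 arrays. The change was 2.06 ± 0.14, a 4.16-fold rise (limma, adjusted p = 4.42e-06). Its name carries the mark _s_at, which Affymetrix gives to probe sets that may also read similar transcripts. The gap between the 2 probe sets' changes was 0.63 on the log2 scale, with no overlap between the groups in the per-array differences (exact permutation test, two-sided, p = 0.1, the smallest that 3 arrays against 3 allow). The probe sets therefore gave a rise in the same direction, and its size was 2.70-fold or 4.16-fold by the probe set read.

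The annotation notes of a probe set for another locus, LOC_Os06g05120 (Os06g0143100, chromosome 6), list the OsCDT3 transcript among those that its probes could cross-hybridise with, by 1 probe. That locus, described only as an expressed protein, was singled out for this note and after its values were seen. Its probe set without the note read 12.84, 12.88 and 12.94 after Al and 9.49, 9.62 and 9.33 before Al. It was 10.6-fold higher, a log2 change of 3.40 ± 0.08 (limma, adjusted p = 1.24e-08). The probe set with the note rose by 1.79 ± 0.07, and the remaining one by 0.33 ± 0.10 (limma, adjusted p = 0.0386). The 3 probe sets of LOC_Os06g05120 thus differed in the size of the change from 1.26-fold to 10.6-fold.

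GASR1 (Os03g0760800, LOC_Os03g55290, chromosome 3, 31403765 to 31404574) encodes a protein of the family of small, secreted, cysteine-rich peptides first known as gibberellin-stimulated transcripts. Its signals were 9.54, 9.51 and 9.69 after Al and 8.37, 8.42 and 8.05 before Al. The arrays of each group lay close together and the groups were more than 1 unit apart. GASR1 rose by 1.30 ± 0.12 on the log2 scale, 2.46-fold with a 95% interval of 2.05 to 2.97 (limma, adjusted p = 3.05e-05).

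**Figure D2:**
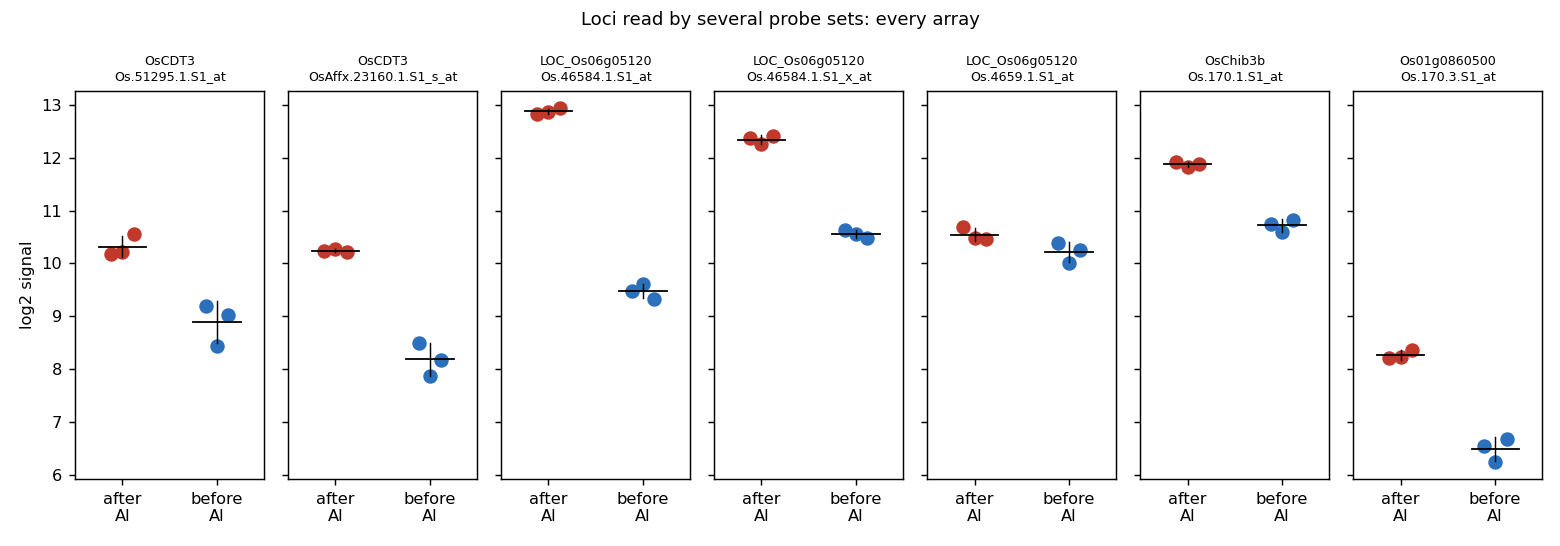
Log2 signal on every array for loci read by more than 1 probe set, after Al (red) left of before Al (blue), with the mean and SD of 3 arrays; the panel titles give the locus or gene and the probe set. Both OsCDT3 probe sets were higher after Al, and the 3 probe sets of LOC_Os06g05120 ranged from 1.26-fold to 10.6-fold.

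The next genes encode an expansin, which acts on the cell wall, and a chitinase. OsEXPA10 (Os04g0583500, chromosome 4, 29266052 to 29269509) encodes an alpha-expansin, a secreted protein that loosens the wall as cells elongate. It read 12.11, 11.94 and 12.25 after Al and 11.62, 11.68 and 11.45 before Al. The groups did not overlap, but the lowest array after Al lay only 0.26 units above the highest before Al. OsEXPA10 rose by 0.52 ± 0.09 on the log2 scale, 1.43-fold with a 95% interval of 1.25 to 1.65 (limma, adjusted p = 0.00157; 0.00110 to 0.0726 over the alternatives). The annotation names the MSU locus of the same probe set, LOC_Os04g49410, as alpha-expansin 13, and its GenBank transcript as OsEXPA10. Its notes list 2 probes that could cross-hybridise with a GenBank sequence, and 11 that match the opposite strand of LOC_Os04g49420.

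OsChib3b (Os01g0860500, LOC_Os01g64110, chromosome 1, 37566431 to 37567624) encodes a basic class III chitinase, an enzyme that cuts chitin. Its signals were 11.92, 11.82 and 11.88 after Al and 10.75, 10.59 and 10.82 before Al. The arrays after Al lay close together, and 1.00 unit separated the groups at their closest. OsChib3b rose by 1.16 ± 0.07 on the log2 scale, 2.23-fold with a 95% interval of 1.99 to 2.49 (limma, adjusted p = 2.35e-06).

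A second probe set carries the locus Os01g0860500 by its RefSeq transcript but names LOC_Os01g64120, described as a ferredoxin, as its MSU locus. Which of the loci it reads is not settled, so it did not stand for the chitinase. It read 8.20, 8.23 and 8.37 after Al and 6.55, 6.24 and 6.68 before Al, with a present call on 1 array before Al. Its change was 1.78 ± 0.16 (limma, adjusted p = 2.72e-05). Another probe set, matching the opposite strand of LOC_Os01g64110, lay between 3.97 and 4.61 after Al and between 3.52 and 4.62 before Al, and was called present on 1 array.

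3 further members encode enzymes of metabolism or proteolysis. Os02g0770800 (LOC_Os02g53130, chromosome 2, 32507874 to 32511286) is described as a nitrate reductase, the enzyme that turns nitrate into nitrite at the start of nitrogen assimilation. It read 10.83, 10.79 and 11.29 after Al and 7.91, 7.62 and 7.76 before Al. The third array after Al was the highest, and the lowest array after Al still lay 2.88 units above the highest before Al. This was the widest gap of the 9 tested genes.

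The nitrate reductase rose by 3.21 ± 0.14 on the log2 scale, 9.25-fold with a 95% interval of 7.44 to 11.5 (limma, adjusted p = 2.58e-07). In the authors' deposited table, which compares mean linear signals, its fold was 9.34. Os08g0468100, another nitrate reductase locus, shares its probe set with the neighbouring locus LOC_Os08g36500, also a nitrate reductase. That probe set read 10.17, 10.40 and 10.40 after Al and 10.13, 10.12 and 9.82 before Al, a log2 change of 0.30 ± 0.10 that did not pass (limma, adjusted p = 0.0556). It passed without the first array after Al (0.0313). The nitrite reductase Os01g0357100, which takes the next step of the pathway, had a log2 change of 0.22 ± 0.16 and did not pass (limma, adjusted p = 0.351), but passed without the first array before Al (0.0181). The difference in response between Os02g0770800 and these genes was not tested, and the 95% intervals of their changes are far apart.

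Os02g0755900 (LOC_Os02g51930, chromosome 2, 31800107 to 31801951) is described as a cytokinin-O-glucosyltransferase, of an enzyme family that attaches glucose to small molecules. Its signals were 7.77, 7.75 and 7.90 after Al and 7.71, 7.06 and 6.91 before Al. The first array before Al lay only 0.04 units under the lowest array after Al, while the other arrays before Al were well below it. The log2 change was 0.58 ± 0.21, with a 95% interval of 0.11 to 1.04, and did not pass (limma, adjusted p = 0.0616; 0.00610 to 0.299 over the alternatives). Without the first array before Al it was 0.82 and passed (limma, adjusted p = 0.00610). The annotation notes of this probe set list 8 probes that could cross-hybridise with a GenBank sequence.

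Os09g0479900 (LOC_Os09g30250, chromosome 9, 18418803 to 18421474) is described as a subtilisin-like protease, a secreted serine protease. Both of its probe sets were absent on all 6 arrays and were not tested. The brighter one read 5.83, 6.17 and 6.61 after Al and 6.90, 6.24 and 6.35 before Al, and the dimmer one 3.09, 4.66 and 5.13 after Al and 3.29, 4.09 and 4.58 before Al. The groups overlapped in both, so no difference was measurable for this gene at these signals.

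For the last 3 members no MSU description names a product. Os04g0419100 (chromosome 4, 20529204 to 20530177) read 9.74, 9.80 and 9.78 after Al and 6.77, 6.60 and 7.06 before Al. The arrays after Al were nearly equal, and the first array before Al was not called present. It rose by 2.97 ± 0.13 on the log2 scale, 7.82-fold with a 95% interval of 6.35 to 9.62 (limma, adjusted p = 3.17e-07). The interval of this change overlapped that of the nitrate reductase and of no other member.

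Os04g0494900 (LOC_Os04g41750, chromosome 4, 24525604 to 24527470) is described only as an expressed protein, with 1 predicted membrane span at residues 7 to 29 in the deposited annotation. It read 12.68, 12.36 and 12.49 after Al and 10.56, 10.83 and 10.40 before Al, with at least 1.54 units between the groups. It rose by 1.92 ± 0.11 on the log2 scale, 3.77-fold with a 95% interval of 3.16 to 4.50 (limma, adjusted p = 1.71e-06). The next locus, LOC_Os04g41740 (Os04g0494800), lies 2027 bases away, and the notes of its probe set list the transcript of Os04g0494900 for 1 probe. That probe set read 9.57, 9.74 and 9.97 after Al and 9.64, 9.76 and 9.79 before Al, so its groups overlapped (log2 change 0.03 ± 0.11).

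Os03g0126900 (chromosome 3, 1500747 to 1501392) has 2 predicted membrane spans, at residues 41 to 63 and 73 to 95. Its signals were 9.06, 9.06 and 9.24 after Al and 8.77, 8.77 and 8.31 before Al, with the third array before Al the lowest. It rose by 0.50 ± 0.14 on the log2 scale, 1.42-fold with a 95% interval of 1.14 to 1.76 (limma, adjusted p = 0.0203; 0.0193 to 0.193 over the alternatives). Its adjusted p was 0.0640 when the third array after Al was left out, 0.0552 in limma with no intensity trend and 0.193 by an unequal-variance test, so the call was lost in these settings.

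The changes thus spanned 1.42-fold to 9.25-fold among the 8 genes that rose. Among the 9 tested genes, the third array after Al was the highest of its group in 6 and the second the lowest in 7. These counts were not made over all tested probe sets, so they cannot be read as a trait of the members. The SD before Al was larger than that after Al in 7 of the 9, against 43.4% of all tested probe sets. In the authors' deposited table, which was not adjusted for multiple testing, 7 of the 9 were higher after Al at a p-value below 0.05, against 14.5% of all tested probe sets. The deposited p-values of Os02g0755900 and Os03g0126900 in that table were 0.137 and 0.0669.

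The members were next set beside other genes known to depend on ART1, among them the transporters. Of 21 such loci, 17 had a probe set and 15 were tested. The 15 held 11 that rose, 8 of them at least 2-fold, with a median log2 change of 1.00, beside 8 of 9 and a median of 1.30 for the members. Over all tested probe sets, 14.3% were called higher and 4.55% at least 2-fold higher. OsFRDL4 (Os01g0919100), a citrate transporter, and its neighbour Os01g0919200 had no present call before Al, so their folds rest on signals not called present. Raising each signal before Al to at least the dimmest signal with a present call on that array changed neither fold. OsFRDL4 was 54.8-fold higher, or 33.0-fold when the second array before Al was left out, so the size of its rise is uncertain. Os01g0919200 was 3.30-fold higher. Both passed the filter only through the arrays after Al. Without them, 9 of 13 rose, 6 of them at least 2-fold, with a median log2 change of 0.97.

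Os12g0227400, described as an oxidoreductase, read 10.54, 10.50 and 10.45 after Al and 8.38, 8.29 and 7.83 before Al, and rose by 2.33 ± 0.14. STAR1 (Os06g0695800), the ATP-binding subunit of a transporter that rice needs for Al tolerance, read 13.07, 13.18 and 13.15 after Al and 11.28, 11.33 and 11.21 before Al. It rose by 1.86 ± 0.06. The 4 of these 15 loci that did not pass were Os01g0716500 (log2 change 0.46 ± 0.17, limma, adjusted p = 0.0728, passing at 0.0262 without the second array after Al), Os09g0426800 (0.31 ± 0.18), Os10g0524300 (0.08 ± 0.12) and Os01g0652100 (-0.19 ± 0.13). Thus members and other loci of the pathway both ranged from changes too small to call to rises of several fold.

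**Figure D3:**
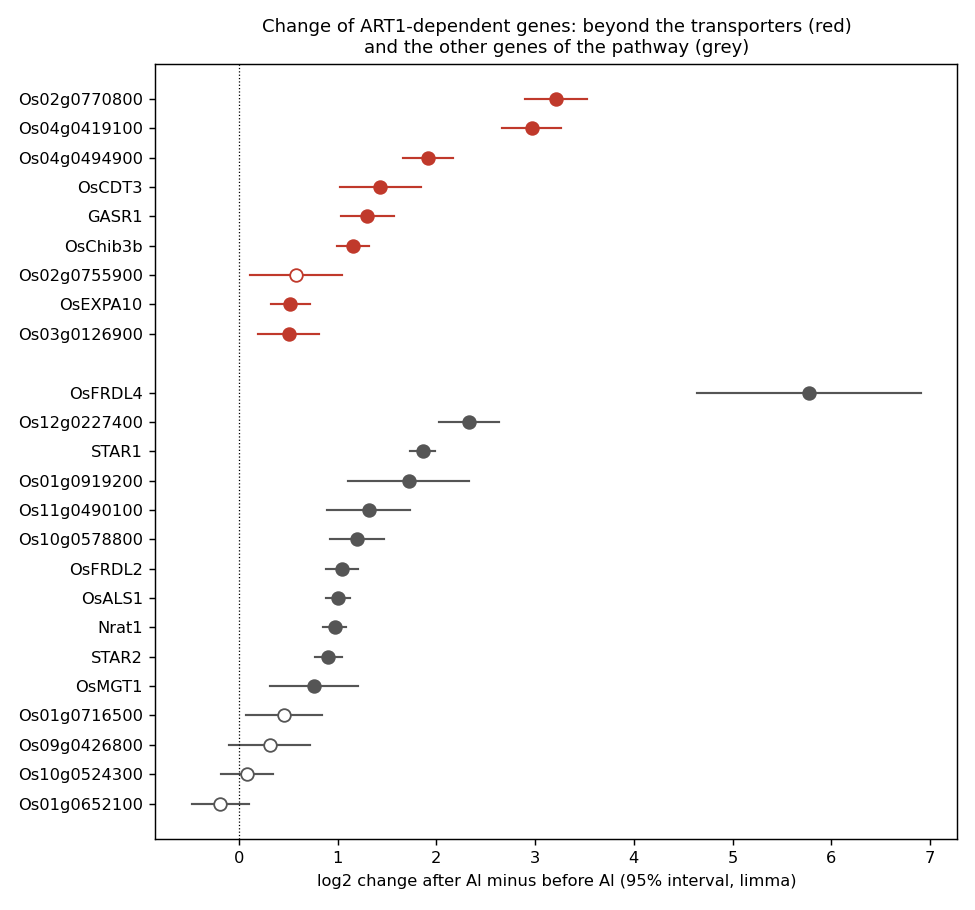
Log2 change after Al minus before Al with its 95% interval (limma) for the 9 tested genes beyond the transporters (red, top) and the 15 other tested genes of the pathway (grey, bottom); filled points passed the adjusted p threshold of 0.05 and open points did not. The red points run from 0.50 for Os03g0126900 to 3.21 for Os02g0770800, and OsFRDL4 has the largest grey value and the widest interval.

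The neighbours of the members on the chromosome were read as well, by a rule based on position and chosen after the members' values were seen. On each side of the 9 tested members, the nearest tested gene whose alignment did not overlap was taken, leaving out probe sets that match several loci or name the locus of the member itself. The second of these limits left out the probe set that names both Os01g0860500 and LOC_Os01g64120, 381 bases past OsChib3b. The 18 flanking genes lay 372 to 29035 bases away, with a median log2 change of -0.07. Of these, 1 was higher, 5 were lower and 12 did not pass, against 14.3% of all tested probe sets called higher and 15.9% called lower. With the probe set of LOC_Os01g64120 counted as the gene on that side of OsChib3b, 2 were higher, 5 were lower and 11 did not pass. In the 18 as first taken, the 17 flanking genes other than that riser had log2 changes between -1.47 and 0.34.

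The flanking gene that rose was LOC_Os01g64100 (Os01g0860400), an acidic endochitinase 2376 bases from OsChib3b. It read 8.08, 7.58 and 7.92 after Al and 4.95, 4.57 and 4.43 before Al, and was called present on all 3 arrays after Al and on none before Al. It was 9.27-fold higher, a log2 change of 3.21 ± 0.24 (limma, adjusted p = 6.88e-06). It passed the filter only through the arrays after Al. The flanking genes that fell were LOC_Os04g49370 beside OsEXPA10 (-1.47 ± 0.15), the histone gene LOC_Os04g34240 beside Os04g0419100 (-1.27 ± 0.16), LOC_Os04g41759 beside Os04g0494900 (-1.20 ± 0.18), LOC_Os02g51890 beside Os02g0755900 (-0.86 ± 0.06) and LOC_Os03g55280 beside GASR1 (-0.27 ± 0.09). Neighbours of the nitrate reductase, OsCDT3 and Os03g0126900 did not pass, with log2 changes from -0.38 to 0.02.

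**Figure D4:**
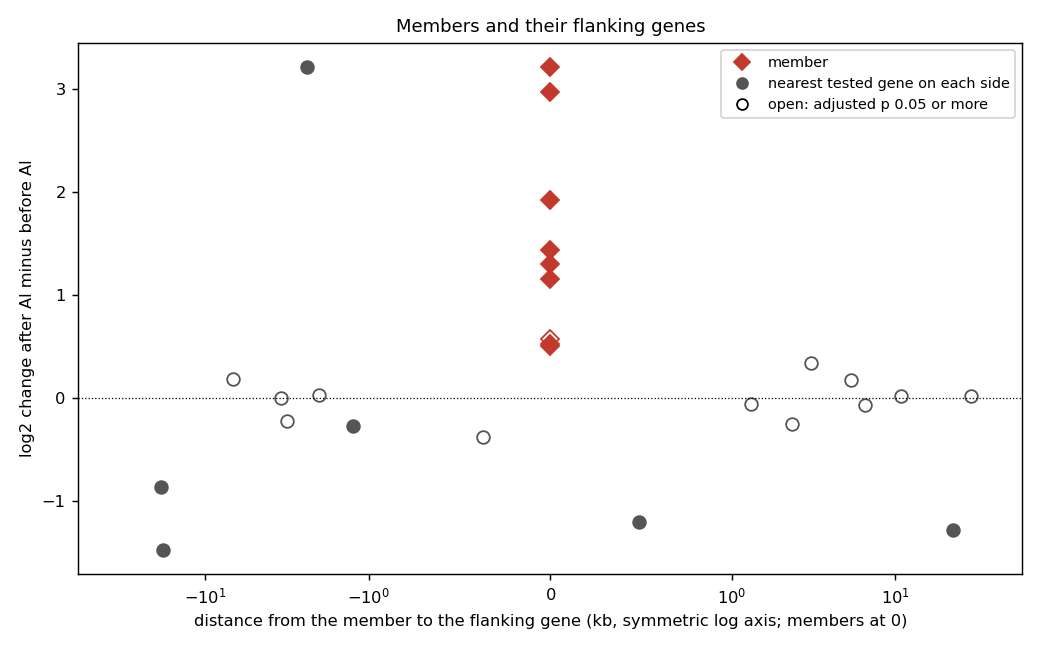
Log2 change after Al minus before Al of the 9 tested members (red diamonds, at 0 kb) and of the nearest tested gene on each side (grey points), against the distance in kb on a symmetric log axis; filled symbols passed the adjusted p threshold of 0.05. Of the 18 flanking genes plotted, 1 was called higher, the chitinase LOC_Os01g64100, and the probe set that names both Os01g0860500 and LOC_Os01g64120 is not plotted.

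The changes of the members were also computed with other settings, and none reversed. The nitrate reductase stayed between 3.03 and 3.30 on the log2 scale, Os04g0419100 between 2.65 and 3.09, Os04g0494900 between 1.82 and 2.03, GASR1 between 1.19 and 1.37 and OsChib3b between 1.09 and 1.21, and these 5 passed in every setting that tested them. OsCDT3 ran from 1.21 to 2.06, the highest with the second probe set. OsEXPA10 ran from 0.44 to 0.60. OsCDT3 and OsEXPA10 lost their calls by the unequal-variance test (adjusted p = 0.0695 and 0.0726). Os04g0419100 and the brighter OsCDT3 probe set had present calls on 5 arrays and were not tested where a present call on all 6 was required.

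**Figure D5:**
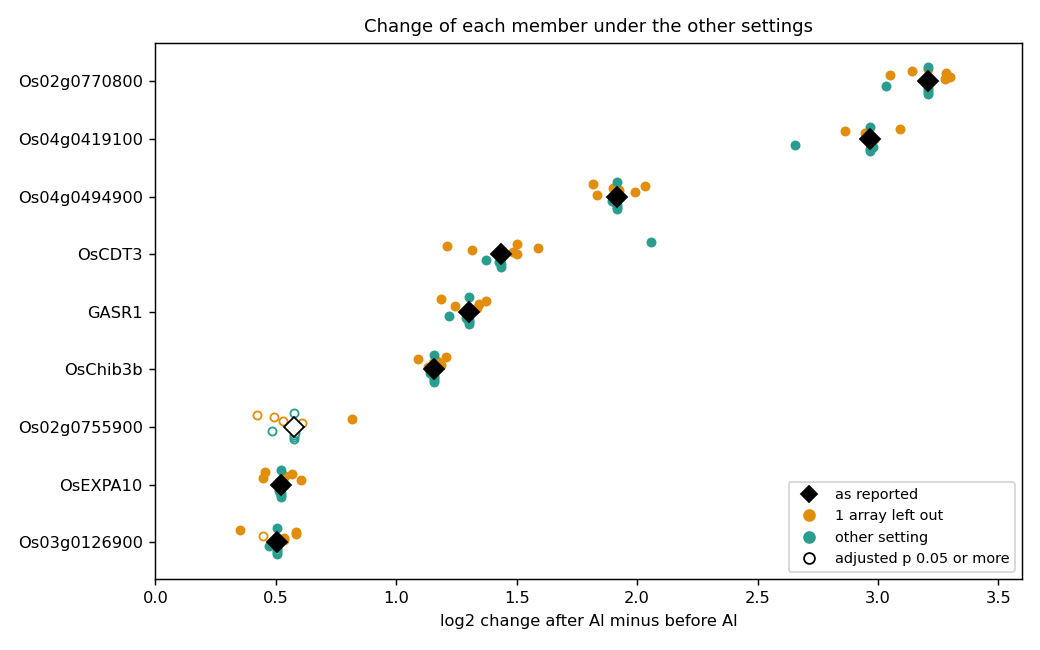
Log2 change after Al minus before Al of the 9 tested members as reported (diamonds), with 1 array left out (orange) and under the other settings (green); open symbols had an adjusted p of 0.05 or more. All symbols lie above 0, and open symbols occur for Os02g0755900, OsEXPA10, Os03g0126900 and OsCDT3.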

How the data were processed

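Per the labels' protocols, total RNA was labelled with biotin and hybridised to Affymetrix rice arrays. The submitters' processing notes name MAS5, with no version. The deposited log2 signals are used as they stand, and their linear trimmed means were 497.0 to 497.2 on every array. The deposited table also holds detection calls, an unadjusted p-value, which equals an unequal-variance test, and a fold, the ratio of mean linear signals, per the file headers and recomputation. Per-array depth does not apply to arrays, and 3 arrays a group limit the precision.

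Probe sets with a present call on 3 or more of the 6 arrays were tested with limma 3.58.1 in R 4.3.3 (lmFit, eBayes with an intensity trend), without covariates, with Benjamini-Hochberg adjustment over 25283 probe sets and a threshold of 0.05. The fit was tested on simulated data. The brightest probe set stood for a gene. The members, the gene lists and the tests were chosen with earlier results of these data known. All members were named. Of other ART1-dependent genes, the 4 with the largest changes and those that did not pass were named, and of each gene family up to 2 passing genes each way. The reference gene table matched 0 of 23481 RefSeq accessions and was not used. Alternatives were other filters, no trend, quantile normalization, an added constant of 32, the probe set of smallest p, an unequal-variance test, a replicate block and leaving out each array. No sequences were used here.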

Additional observations from a re-analysis of the deposited data

How the results depend on the processing

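Of the settings tried, only the unequal-variance test with Benjamini-Hochberg adjustment moved a count by more than 1.5 times, apart from the flanking genes called higher, which were 2 in place of 1 with the probe set of LOC_Os01g64120 counted. Under it 5 of the 9 members were called higher in place of 8, 6 of the 15 other ART1-dependent genes in place of 11, and 14 genes higher and 18 lower in the members' families, taken by words alone, in place of 39 and 37. Over all probe sets it called 1489 higher and 1408 lower, in place of 3626 and 4013. The cause was not tested. Leaving out 1 array gave 7 to 9 members higher, the 9 without the first array before Al and the 7 without the third array after Al, and 10 to 11 of the other ART1-dependent genes. Of alternatives chosen after seeing the data, naming members by RAP locus alone gave 7 higher, and leaving out family genes of another product gave 35 higher and 37 lower.

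The array numbers used are those of the sample titles, and the deposited column names number the arrays after Al differently. By title, same-numbered arrays deviated from their group means with correlations of 0.07, 0.0011 and 0.09, and arrays of different numbers with -0.09 to 0.02. With 3 arrays a group these values cannot settle whether the numbers pair the arrays. The labels name no pairs, and the main test used none. A replicate block gave 8 members, 12 other ART1-dependent genes, 40 higher and 38 lower family genes, and 3710 higher and 4134 lower probe sets. Of the 9 tested members, 5 kept their call in every setting that tested them, and 1 of these 5, Os04g0419100, was not tested where a present call on all 6 arrays was required. Dim signal limits the subtilisin-like protease, which had no present call.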

Other observations

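Genes of the same kind as a member, taken by words in the annotation, went both ways after Al. Inhibitors, lipases and glucuronosyltransferases that held the same words are left out of the counts below, a choice made after the values were seen. Of 34 tested expansin genes besides OsEXPA10, 6 rose and 11 fell, with a median log2 change of -0.17. The alpha-expansins LOC_Os01g14650 and LOC_Os01g60770 rose by 1.00 ± 0.07 and 0.95 ± 0.06. The alpha-expansin LOC_Os03g31480, not called present after Al, was 2.52-fold lower (log2 change -1.33 ± 0.20). The beta-expansin LOC_Os10g40730 fell by 0.93 ± 0.09. Of 5 tested genes of the GASR1 kind, 1 rose and 4 fell. LOC_Os06g51320 rose by 1.21 ± 0.10, LOC_Os09g24840 fell by 2.57 ± 0.12 and LOC_Os03g41060 fell by 1.36 ± 0.18.

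Of 16 tested chitinase genes besides OsChib3b, 9 rose and 2 fell, with a median log2 change of 0.59. Of 4 tested xylanase inhibitor genes that carry the word chitinase in their annotation, 2 rose. LOC_Os03g04060 rose by 2.72 ± 0.36. The 9 chitinase genes that rose also hold the flanking gene LOC_Os01g64100 described above, which passed the filter only through the arrays after Al. LOC_Os05g04690 fell by 0.56 ± 0.13 and LOC_Os11g27400 fell by 0.44 ± 0.10. Of 68 tested glucosyltransferase genes, 16 rose and 11 fell, with a median log2 change of -0.0049. LOC_Os01g41430 rose by 5.81 ± 0.21 and LOC_Os01g53350 by 4.16 ± 0.17. LOC_Os01g49240 fell by 1.13 ± 0.16, and LOC_Os07g13660 fell by 1.08 ± 0.32, a call lost without array 2 or array 3 after Al (limma, adjusted p = 0.0718 and 0.0568) and without array 1 or array 2 before Al (0.105 and 0.0660).

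Of 21 tested subtilisin-like protease genes, 3 rose and 9 fell, with a median log2 change of -0.43. LOC_Os02g17000, not called present before Al, was 4.45-fold higher (log2 change 2.16 ± 0.32), and LOC_Os02g10520 rose by 0.36 ± 0.06. LOC_Os05g36010 fell by 1.51 ± 0.09 and LOC_Os03g40830 fell by 1.16 ± 0.12. The background for these counts is 14.3% of all tested probe sets called higher and 15.9% called lower. The words searched for genes of a member's kind also held DUF642. No gene was annotated with that word, so this family could not be counted.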
